A study of Mus musculus with 18 samples.

Results

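The genes described here encode the killing machinery and the secreted products of cytotoxic lymphocytes. They are the granzymes Gzma, Gzmb, Gzmk and Gzmm, the pore former Prf1, the granule membrane protein Nkg7, the death ligand Fasl, the chemokine Ccl5, the cytokine Ifng and the matrix protein Spon2. Members were found by mapping the RefSeq accession of each probe to a gene, which gave 10 genes with 11 probes among the 55681 probes of the array that are not controls. Nkg7 has 2 probes and the brighter one stands for the gene. The genes were picked because several of them differed between dosed and vehicle mice. Their differences from vehicle, and the calls made on them below, are given as a description and not as a test.

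Lung RNA was taken from male MutaTMMouse animals of about 12 weeks of age, used here in every group. This mouse line has a BALB/C-DBA/2 background and carries a bacterial reporter transgene for mutation assays. Each dosed mouse received the 4PAH-Mix, a mixture of the polycyclic aromatic hydrocarbons benzo[a]pyrene (BaP), benz[a]anthracene, benzo[b]fluoranthene and chrysene in olive oil, by gavage on each of 28 days, and the tissue was collected 72 hours after the last dose. The 5 vehicle mice were given olive oil alone. The low dose was 12.5 (4 mice), the medium dose 25 (5 mice) and the high dose 50 (4 mice), all in mg BaP equivalents per kg of body weight and day. The study asked how the dose of such a mixture changes gene expression in the lung. Each array carried Cy5-labelled lung RNA of 1 mouse and the same Cy3-labelled Universal Mouse Reference RNA, and a value below is the log2 ratio of lung to reference for that mouse. The reference is made from mouse cell lines, so the sign of a level says only whether lung RNA or reference RNA gave more signal.

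Natural killer cells and cytotoxic T cells store perforin and granzymes in secretory granules and release them onto a target cell. Perforin opens the target membrane, granzymes are serine proteases that enter and cleave proteins of the target, and Fas ligand triggers death through the receptor Fas. The same cells secrete interferon gamma, which activates macrophages, and the chemokine CCL5, which attracts T cells, natural killer cells and eosinophils. In the lung these lymphocytes take part in the defence against viruses and tumour cells. Whole lung RNA was measured, so fewer cells of a type and less RNA per cell cannot be told apart.

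Promoters are shown first for Gzma, Gzmb, Prf1 and Nkg7, the granule genes whose levels moved together from mouse to mouse within dose groups, as described below. Each line holds the 250 bases before the annotated start in RefSeq's GRCm38.p6, 5′ to 3′ on the strand of the gene. Gzma is at chr13:113100982-113101231 on the minus strand, Gzmb at chr14:56262335-56262584 on the minus strand, Prf1 at chr10:61297586-61297835 on the plus strand and Nkg7 at chr7:43436888-43437137 on the plus strand. Capitals mark every match, on either strand, to 5 short motifs: the Runt core TGTGGT of RUNX factors, the T-box core GGTGTG of T-bet and eomesodermin, the STAT motif TTCNNNGAA, the AP-1 motif TGANTCA and the core GCGTG of the aryl hydrocarbon receptor (AHR), the receptor that PAHs activate.
Gzma: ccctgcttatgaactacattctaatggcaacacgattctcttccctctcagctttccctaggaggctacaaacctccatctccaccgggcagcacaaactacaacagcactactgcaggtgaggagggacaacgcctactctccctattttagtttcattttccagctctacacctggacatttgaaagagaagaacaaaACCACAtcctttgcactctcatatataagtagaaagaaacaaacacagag
Gzmb: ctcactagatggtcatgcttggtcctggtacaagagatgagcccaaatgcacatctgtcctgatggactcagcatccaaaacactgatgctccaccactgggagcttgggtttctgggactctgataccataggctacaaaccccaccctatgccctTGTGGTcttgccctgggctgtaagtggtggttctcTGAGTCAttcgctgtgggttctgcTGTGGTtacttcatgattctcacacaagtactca
Prf1: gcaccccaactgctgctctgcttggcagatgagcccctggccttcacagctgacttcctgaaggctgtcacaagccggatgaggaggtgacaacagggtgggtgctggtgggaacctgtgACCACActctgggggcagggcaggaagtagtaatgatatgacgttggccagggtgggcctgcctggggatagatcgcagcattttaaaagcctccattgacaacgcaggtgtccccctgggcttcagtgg
Nkg7: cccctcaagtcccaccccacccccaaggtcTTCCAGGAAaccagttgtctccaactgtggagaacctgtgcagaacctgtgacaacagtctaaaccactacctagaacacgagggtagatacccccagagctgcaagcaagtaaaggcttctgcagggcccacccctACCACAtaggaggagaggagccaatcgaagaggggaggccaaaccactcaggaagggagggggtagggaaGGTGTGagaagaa
All 4 promoters held the Runt core, at bases 50 to 45 before the start in Gzma, 130 to 125 in Prf1 and 83 to 78 in Nkg7, and at 93 to 88 and again at 34 to 29 in Gzmb. Gzmb also held the AP-1 motif between these, and Nkg7 held the T-box core and the STAT motif. The capitals in each promoter come from matches that did not overlap each other. Promoters were found for 8 of the 10 genes, all but Ccl5 and Spon2, and Gzmm had 2 of them, giving 9 windows of this length. The Runt core was in 5 of the 9 against 14.0% of the 32851 promoters of the table, the T-box core in 4 against 16.3%, the STAT motif in 3 against 7.02%, the AP-1 motif in 1 against 6.75% and the AHR core in 1, that of Gzmm, against 28.2%. Besides the 4 promoters shown, the Runt core was in 1 window of Gzmm and not in that of Fasl. Any link between this motif and how levels varied was not tested. A match of letters is not a site of binding.

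All 4 groups were present on each of the 3 slides. Within a slide the dose went with the array column, and these cannot be told apart. In Cy5, 51.5% to 61.1% of the probes on an array stood well above background. The defining markers of the labelled tissue were present, since the 6 markers of lung epithelium and the 3 of endothelium were well above background on all 18 arrays. Of the members, 8 were well above background in Cy5 on each of the 18 arrays. Fasl was so on 13 and Ifng on 6. Gzmb and Fasl were not well above background in the Cy3 channel of any array, so their ratio is read against a reference signal at background.

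At the high dose 8 of the 10 members lay below vehicle and Gzma, Ccl5 and Spon2 were the furthest down. The median log2 difference of the members from vehicle was -0.23, -0.17 and -0.43 with rising dose, beside 0.01, 0.02 and 0.02 over all 20656 named genes. A member was called when its limma adjusted p was 0.05 or less and its fold change at least 1.5. Ccl5 was called at the low dose, where 0.0251% of all probes were called lower, Ccl5 and Spon2 at the medium dose, where 0.447% were, and Gzma, Ccl5 and Spon2 at the high dose, where 0.805% were. All of these calls were lower than vehicle. Gzma, Ccl5 and Spon2 at the high dose, and Gzmk and Spon2 at the medium dose, lay below vehicle with no overlap of the groups, as did 4.34% and 2.05% of all probes at these doses. Since the members were picked with these differences known, nothing is read from the counts.

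**Figure D1:**
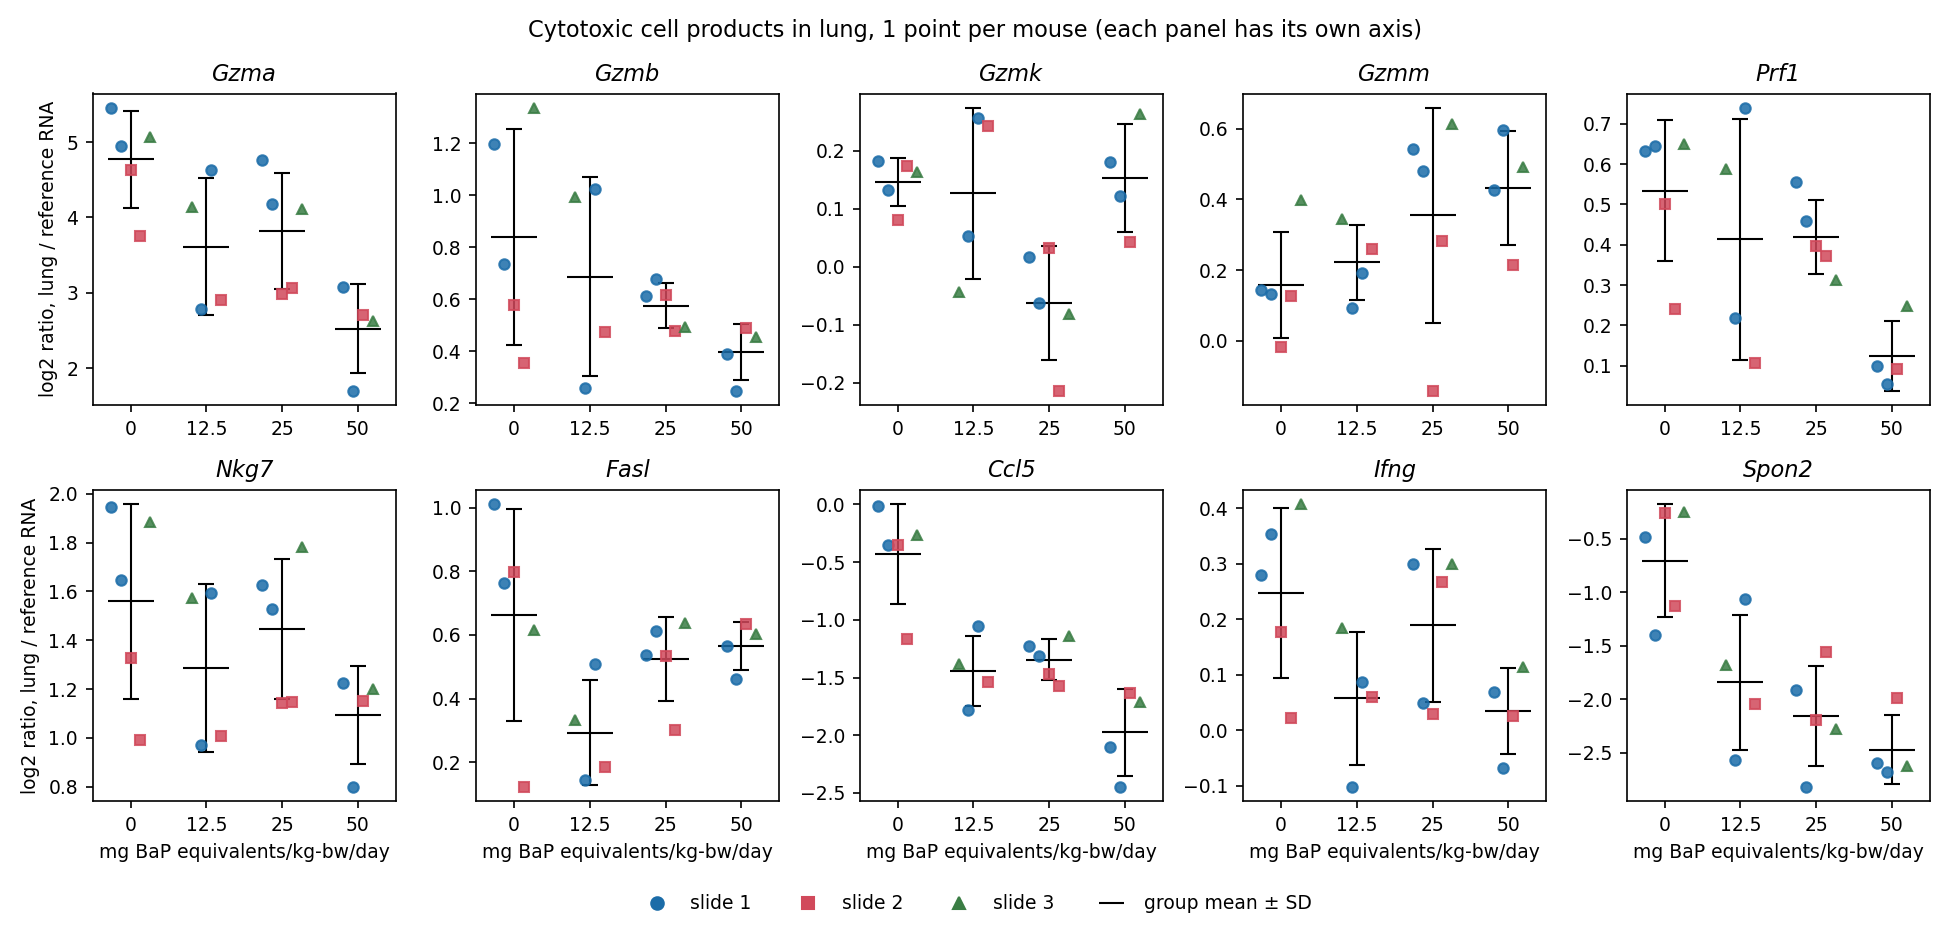
Log2 ratio of lung to reference RNA (y axis, own scale in each panel) in each of the 18 mice, by dose in mg BaP equivalents/kg-bw/day (x axis), with a symbol for each slide and the group mean ± SD as bars. The high-dose mice of Gzma, Ccl5 and Spon2 lie below every vehicle mouse, while those of Fasl lie within the vehicle range.

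Gzma encodes granzyme A, a protease that cuts after basic residues. Its log2 ratio was 5.46, 4.95, 4.63, 3.75 and 5.07 in the 5 vehicle mice, 2.79, 4.62, 2.90 and 4.14 at the low dose, 4.76, 4.17, 2.98, 3.07 and 4.12 at the medium dose and 3.08, 1.70, 2.70 and 2.62 at the high dose. All 4 high-dose mice lay below all 5 vehicle mice, while the low and medium groups overlapped the vehicle group. The high-dose mean was 2.52 ± 0.59 (SD, n = 4) against 4.77 ± 0.64 (SD, n = 5) in vehicle, a log2 difference of -2.25 (SE 0.41), or 4.74-fold lower. The differences at the low and medium dose were -1.16 (SE 0.41) and -0.95 (SE 0.38). In raw Cy5 intensity the probe ran from 2282 to 8235 in vehicle mice and from 614 to 1701 at the high dose. When arrays were centred on the median instead of by loess the high-dose difference was -1.92 and was not called.

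Granzyme B, the granzyme that activates caspases, lay closer to its vehicle level. Its log2 ratios were 1.20, 0.74, 0.58, 0.36 and 1.34 in vehicle, 0.26, 1.02, 0.47 and 0.99 under the low, 0.61, 0.68, 0.62, 0.48 and 0.49 under the medium and 0.39, 0.25, 0.49 and 0.46 under the high dose. The high-dose mice sat in the lower part of the vehicle range, with 1 of the 4 below every vehicle mouse. The Gzmb difference from vehicle was -0.15 (SE 0.17), -0.27 (SE 0.16) and -0.44 (SE 0.17) at the 3 doses, and none was called. The Cy5 intensity of this probe lay between 111 and 237, against a median local background of 70 to 79 on the arrays, and without background subtraction a ratio so close to background is compressed.

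Gzmk lies next to Gzma on chromosome 13 in the RefSeq table, with no protein-coding gene between them, and encodes granzyme K, another protease that cuts after basic residues. Its log2 ratio was 0.18, 0.13, 0.08, 0.17 and 0.16 in vehicle and 0.18, 0.12, 0.04 and 0.26 at the high dose. At the low dose it was 0.05, 0.26, 0.24 and -0.04, and at the medium dose 0.02, -0.06, 0.03, -0.21 and -0.08. The high-dose values covered the vehicle range, and the 5 medium-dose values all lay below it. The Gzmk difference was 0.01 (95% interval -0.16 to 0.17, and of either sign with single mice left out) at the high dose and -0.21 (SE 0.07) at the medium dose. Cy5 intensity was 109 to 150 on all arrays, close to the local background given above.

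Gzmm, granzyme M, was the member that stood highest against vehicle. Its log2 ratio was 0.14, 0.13, -0.02, 0.13 and 0.40 in vehicle, 0.09, 0.19, 0.26 and 0.34 under the low, 0.54, 0.48, -0.14, 0.28 and 0.61 under the medium and 0.43, 0.60, 0.21 and 0.49 under the high dose. At the high dose 3 of the 4 mice lay above every vehicle mouse. The Gzmm difference was 0.28 (SE 0.12) at the high dose and was not called.

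Perforin, encoded by Prf1, is the protein that lets granzymes into the target cell. Its log2 ratio was 0.63, 0.64, 0.50, 0.24 and 0.65 in vehicle, 0.22, 0.74, 0.11 and 0.59 under the low, 0.55, 0.46, 0.40, 0.37 and 0.31 under the medium and 0.10, 0.05, 0.09 and 0.25 under the high dose. The high-dose mice stood together at the bottom, overlapping the vehicle group only through vehicle mouse 4. The Prf1 difference was -0.41 (SE 0.11) at the high dose, 1.33-fold lower and so short of the fold limit, and -0.12 (SE 0.11) and -0.11 (SE 0.11) at the low and medium dose.

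NKG7 is a membrane protein of cytotoxic granules that is needed for their release. The log2 ratio of its brighter probe was 1.95, 1.65, 1.33, 0.99 and 1.88 in vehicle, 0.97, 1.59, 1.01 and 1.57 under the low, 1.63, 1.53, 1.14, 1.15 and 1.78 under the medium and 1.23, 0.80, 1.15 and 1.20 under the high dose. The groups overlapped at every dose. The Nkg7 difference at the high dose was -0.46 (SE 0.18) on this probe and -0.39 (SE 0.19) on the second one, and neither was called.

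Fas ligand binds the death receptor Fas on the target. The Fasl log2 ratio was 1.01, 0.76, 0.80, 0.12 and 0.62 in vehicle, 0.14, 0.51, 0.19 and 0.33 under the low, 0.54, 0.61, 0.53, 0.30 and 0.64 under the medium and 0.57, 0.46, 0.63 and 0.60 under the high dose. The low-dose group stood lowest of the 4, with a difference from vehicle of -0.37 (SE 0.13), and the high-dose mice lay inside the vehicle range with a difference of -0.10 (SE 0.13). Fasl was well above background in 4 of 5 vehicle, 2 of 4 low-dose, 4 of 5 medium-dose and 3 of 4 high-dose mice.

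Ccl5, the chemokine also known as RANTES, was the member called at all 3 doses. Its log2 ratio was -0.02, -0.35, -0.35, -1.17 and -0.27 in vehicle, -1.78, -1.06, -1.54 and -1.38 under the low, -1.22, -1.31, -1.47, -1.57 and -1.14 under the medium and -2.10, -2.45, -1.63 and -1.71 under the high dose. Vehicle mouse 4 was the 1 vehicle mouse within reach of the low and medium groups, and all high-dose mice lay below it. The Ccl5 difference from vehicle was -1.01 (SE 0.19), -0.92 (SE 0.18) and -1.54 (SE 0.19) with rising dose, or 2.02-, 1.89- and 2.92-fold lower. The low-dose call was the weakest of these. It was lost when any of vehicle mice 1, 2, 3 and 5 or low-dose mice 6, 9 and 10 was left out, and the differences over all 18 such fits ran from -1.20 to -0.90. It was also lost with the scanner ratios, with scale normalization, with Cy5 alone and in a fit of only the groups compared. With median centring Ccl5 was called at no dose, with differences of -0.82, -0.69 and -1.21.

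Interferon gamma mRNA was near the limit of the array. The Ifng log2 ratio was 0.28, 0.35, 0.18, 0.02 and 0.41 in vehicle, -0.10, 0.09, 0.06 and 0.18 under the low, 0.30, 0.05, 0.03, 0.27 and 0.30 under the medium and 0.07, -0.07, 0.03 and 0.11 under the high dose. It was not well above background in any of the 4 high-dose mice and was so in 3 of 5 vehicle mice. The Ifng difference from vehicle at the high dose was -0.21 (SE 0.09, 95% interval -0.40 to -0.03) and was not called. With signals this close to background its size cannot be told.

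Spon2, spondin 2, is an extracellular matrix protein that binds integrins and microbial surfaces. Its log2 ratio was -0.48, -1.40, -0.26, -1.13 and -0.25 in vehicle, -2.56, -1.07, -2.04 and -1.68 under the low, -1.91, -2.82, -2.19, -1.56 and -2.28 under the medium and -2.60, -2.68, -1.99 and -2.62 under the high dose. All medium-dose and all high-dose mice lay below all vehicle mice. The Spon2 difference was -1.13 (SE 0.28) under the low, -1.45 (SE 0.26) under the medium and -1.77 (SE 0.28) under the high dose, the last being 3.40-fold lower. With median centring the differences at the medium and high dose were -1.23 and -1.46, and neither was called. Unlike Gzma, whose low and medium values lay close to each other, Spon2 had a mean that was lower at each higher dose.

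**Figure D2:**
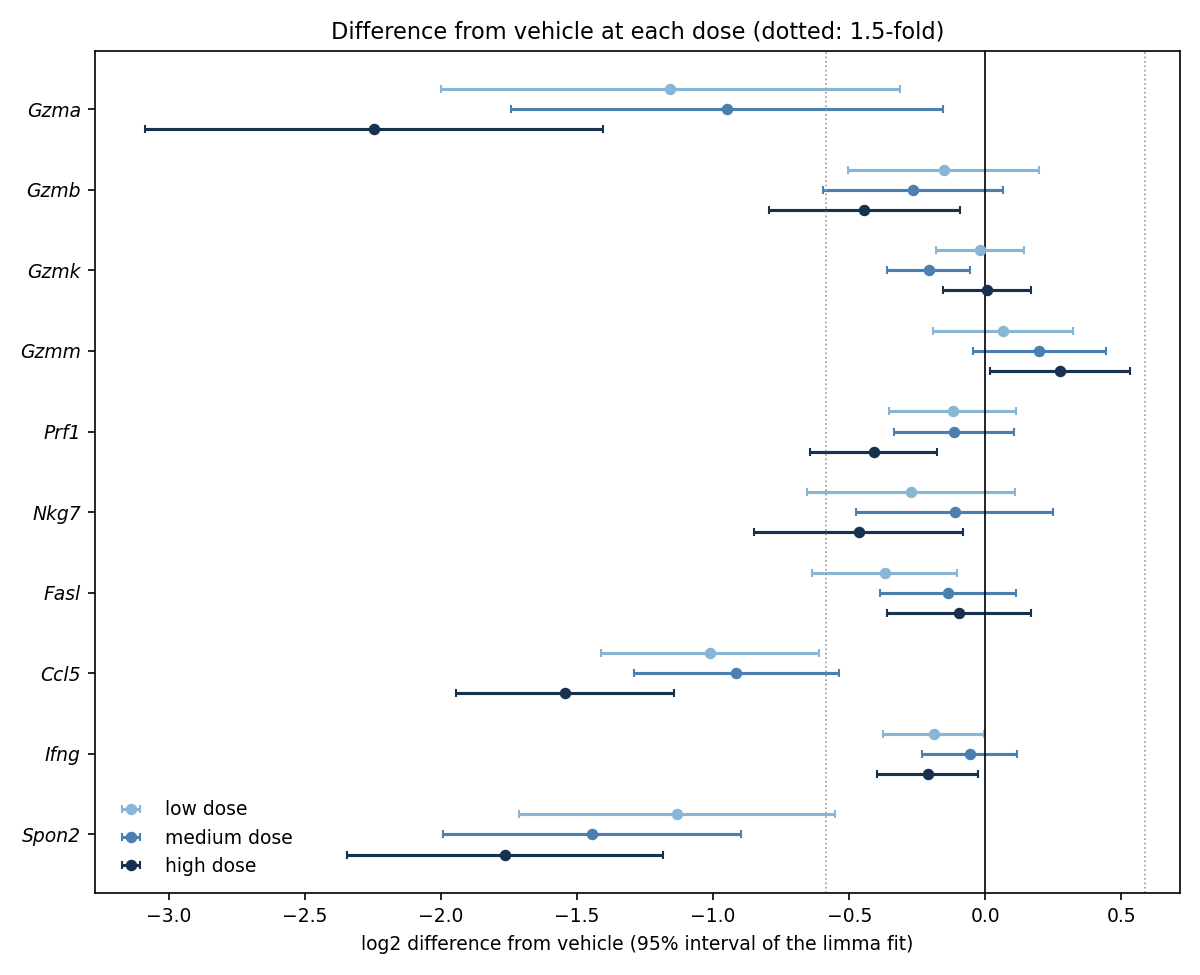
Log2 difference from vehicle (x axis) of the 10 members (y axis) at the low, medium and high dose, with 95% intervals of the limma fit over all 18 arrays. Gzma, Ccl5 and Spon2 lie left of the dotted 1.5-fold line at every dose, and Gzmk and Gzmm lie at or right of 0 at the high dose.

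The doses were also compared with each other. The members were not picked on these contrasts, though the same dosed mice enter the differences from vehicle. No member was called in any of the 3 comparisons, where 0.0449% of all probes were called between high and low dose and 0% between high and medium and between medium and low. At an unadjusted limma p under 0.05 the 3 comparisons held 3738, 2084 and 2764 probes and 4, 4 and 1 members. Between the high and the low dose the Gzma difference was -1.09 (95% interval -1.98 to -0.20, limma adjusted p = 0.640), that of Ccl5 -0.53 (adjusted p = 0.620), that of Spon2 -0.63 (adjusted p = 0.728) and that of Prf1 -0.29 (adjusted p = 0.657). Between the high and the medium dose the Gzma difference was -1.30 (95% interval -2.14 to -0.45) and that of Ccl5 -0.63 (95% interval -1.03 to -0.23), each with a limma adjusted p of 1. These intervals leave room both for a small and for a large difference between doses.

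Some groups did not overlap in these comparisons even so. All 4 high-dose mice lay below all 5 medium-dose mice in Prf1 and in Ccl5, and above them in Gzmk. Over all probes, 0.762% were lower and 0.701% higher without overlap in this comparison. The Prf1 difference was -0.30 (95% interval -0.53 to -0.06) and that of Gzmk 0.21 (95% interval 0.05 to 0.38), and both had a limma adjusted p of 1. Between the medium and the low dose the differences of the members ran from -0.31 for Spon2 to 0.23 for Fasl, with limma adjusted p-values of 0.969 and above.

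The lower level of Gzma, Ccl5 and Spon2 at the high dose was seen on each slide and differed in size between slides. Within slides 1, 2 and 3 the high-dose difference from vehicle was -2.81, -1.49 and -2.45 for Gzma, -2.09, -0.88 and -1.45 for Ccl5 and -1.69, -1.29 and -2.37 for Spon2. Slide 2 gave the highest of the 3 values in 8 of the 10 members. On it the difference was 0.02 for Gzmb and -0.01 for Nkg7, which stood at -0.65 and -0.78 on slide 1. Slide 2 held vehicle mice 3 and 4, and mouse 4 was the lowest vehicle mouse in 7 of the 10 members. Without slide 2, an alternative added after the data were seen, 4 members were called at the high dose, with Nkg7 at -0.75 besides Gzma, Ccl5 and Spon2. With the slide as a block the Gzma difference was -2.37 and the numbers of members called were the same.

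**Figure D3:**
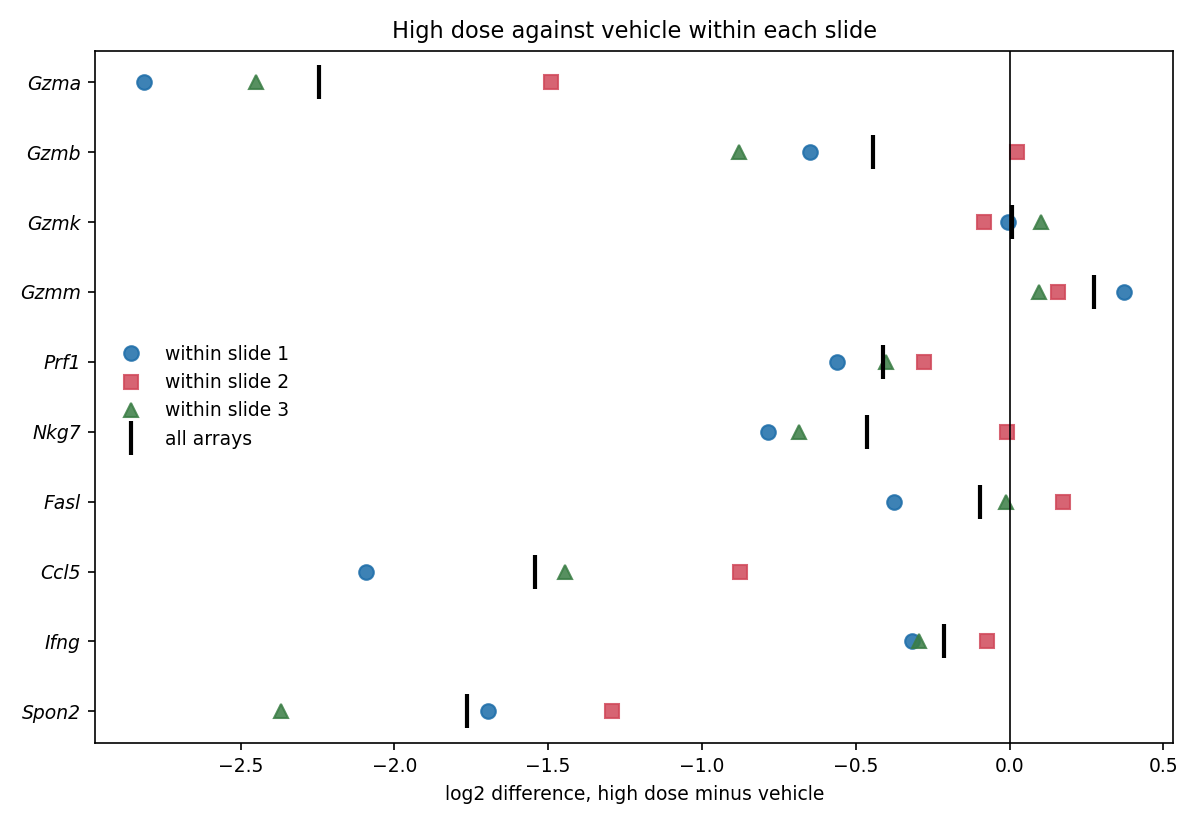
Log2 difference of high dose minus vehicle (x axis) of the 10 members (y axis) within each of the 3 slides (symbols) and over all arrays (black bar). For Gzma, Ccl5 and Spon2 the 3 slides lie below 0, from -0.88 to -2.81, while Gzmb and Nkg7 stand near 0 on slide 2.

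Several of the members varied together from mouse to mouse within dose groups. Deviations of the 18 mice from their own group means gave a Pearson r of 0.92 between Gzma and Nkg7, 0.87 between Fasl and Ccl5, 0.83 between Nkg7 and Ccl5, 0.82 between Gzmb and Nkg7 and 0.80 between Gzmb and Prf1. With slide differences removed too, Gzma and Nkg7 gave 0.91 and Fasl and Ccl5 0.90. The mice share slides and the reference RNA, and these values are given as a description. Single mice stood out in the same way. High-dose mouse 17 was the lowest of its group in 8 of the 10 members and low-dose mouse 6 in 8 of 10, while low-dose mouse 7 was the highest of its group in 8.

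Gzmk stood outside this pattern, with r between -0.07 and 0.16 against every other member, and Gzmm had a median r of 0.17 with the others. Spon2 gave at most 0.53, with Gzmb, and 0.36 with Gzma. With slide differences removed these values were 0.70 with Gzmb and 0.66 with Gzma, and Spon2 reached 0.72 with Prf1. The spread between mice was smaller at the high dose than in vehicle for 8 of the 10 members. For Gzmb the SD was 0.11 at the high dose (n = 4) and 0.41 in vehicle (n = 5), and for Fasl it was 0.08 and 0.33. Both probes read close to background, and vehicle mouse 4 was the lowest vehicle mouse in both. The spread was not set beside that of all probes, and its relation to dose was not tested.

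**Figure D4:**
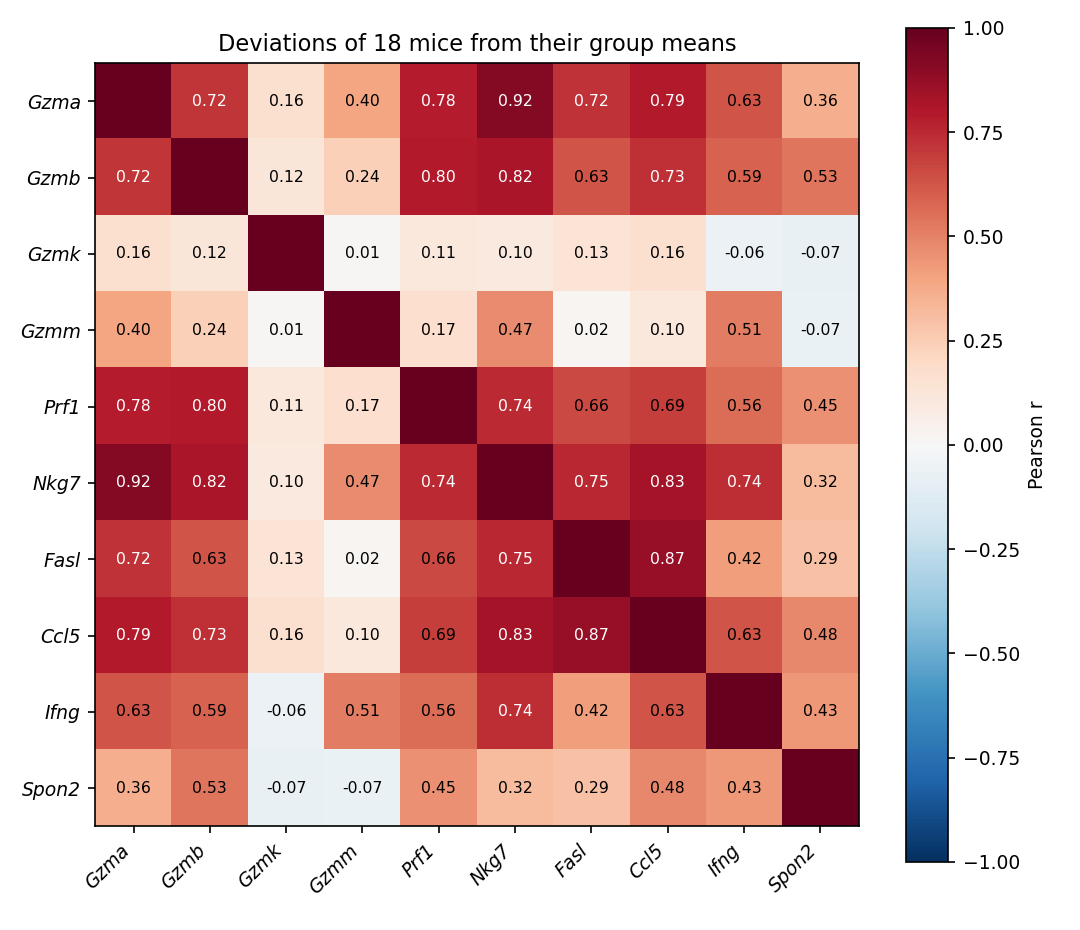
Pearson r between members (rows and columns) of the deviations of 18 mice from their group means. Gzma, Gzmb, Prf1, Nkg7, Fasl and Ccl5 form a block that reaches 0.92, and the row of Gzmk stays between -0.07 and 0.16.

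Genes outside the list that varied most like 3 of the members were sought over 13425 genes well above background on all arrays, by the same deviations. For Gzma they were Pcca with an r of 0.90, Ccdc113 with 0.84, Klra4 with 0.84, Fcf1 with 0.83 and Tmem139 with 0.83. With group means left in, r was 0.25 for Pcca, 0.40 for Ccdc113, 0.93 for Klra4, -0.07 for Fcf1 and 0.50 for Tmem139. Klra4, a receptor of natural killer cells, was the 1 of these called at the high dose, where it fell by 1.29 on the log2 scale (SE 0.22, limma adjusted p = 0.00111). For Ccl5 they were Zfp599 with 0.85, Ada with 0.82, Sytl3 with 0.82, Ccl4 with 0.81 and Borcs7 with 0.80. For Prf1 they were Pdzk1ip1 with 0.87, Aoc1 with 0.87, 2210408I21Rik with 0.85, Cxcl15 with 0.83 and Bcl2l14 with 0.83. The highest r among so many genes can be high by chance, and no link between genes is read from it.

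Other genes of the cytotoxic pathway were listed and described by the same fit. Of 65 such genes with a probe, 2, 2 and 5 were called with rising dose. At the low dose 1 was lower and 1 higher, beside 0.0436% of all named genes called lower and 0.116% higher. At the medium dose 1 was lower and 1 higher, beside 0.431% and 0.503%. At the high dose 2 were lower and 3 higher, beside 0.775% of all named genes called lower and 0.736% higher. Their median difference at the high dose was 0.03. The further granzymes Gzmc, Gzmd, Gzme, Gzmf, Gzmg and Gzmn, which lie in the same cluster as Gzmb, were not well above background on any array, and of these Gzmd stood at 0.18 and Gzmc at -0.16. Srgn, serglycin, the proteoglycan that packs granzymes in granules and is also made by many other blood cells, rose at each dose, by 0.62, 0.78 and 1.01 (limma adjusted p = 0.0299, 0.000267 and 2.13e-05). Of the 11 granule proteins listed, Srgn was the 1 called.

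The 8 genes of granule release had no call at any dose, with high-dose differences from -0.21 for Unc13d to 0.26 for Vamp7 and Ap3b1 at -0.17. The 5 granzyme inhibitors had none either. Serpinb9, the granzyme B inhibitor, stood at -0.27 (SE 0.09, limma adjusted p = 0.104). Its 4 high-dose values lay below all vehicle values, as did those of 4.34% of all probes. Serpina3n stood at -0.27 as well, and Serpinb9b, not well above background on any array, at 0.12. Of the 8 other death ligands and secreted products, Ccl4 fell by 0.76 at the high dose (SE 0.18, limma adjusted p = 0.016) and Tnfsf10, the death ligand TRAIL, rose by 0.62 (SE 0.13, limma adjusted p = 0.00882). Ccl4 lies on chromosome 11 with Ccl5, with 3 other chemokine genes between them, of which Ccl3 stood at -0.22 (limma adjusted p = 0.257). The Ccl4 call was lost without high-dose mouse 16 or 17 and the Tnfsf10 call without high-dose mouse 16 or vehicle mouse 3. Lta stood at 0.32, under the fold limit.

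Of 8 receptors of these products, Tnfrsf10b, the TRAIL receptor and a p53 target, rose by 0.73 at the high dose (SE 0.11, limma adjusted p = 0.000506). Igf2r, which takes up granzyme B, stood at 0.31 and Ifngr2 at -0.20, and neither was called. Of 8 transcription factors of cytotoxic cells with a probe, Nfil3 fell by 0.72, 0.81 and 0.82 at the 3 doses (limma adjusted p = 0.00719, 0.000175 and 0.000177). Nfil3 is needed for natural killer cell development and is also a repressor in the circadian clock of many tissues. The T-box factors Tbx21 and Eomes, which activate granzyme and perforin genes, stood at -0.47 and -0.50 at the high dose (limma adjusted p = 0.101 and 0.104), and Runx3 stood at 0.08. The median of this list was 0.03.

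The 10 cytokines and receptors that drive cytotoxic cells had no call. Il18r1 stood at -0.51, Il15 at 0.42 and Il2rb at -0.40 at the high dose (limma adjusted p = 0.390, 0.0531 and 0.195). The 7 interferon gamma targets had none, with Cxcl10 at -0.67, Gbp2 at 0.21 and Ido1, not well above background on any array, at 0.20. The median over the interferon gamma targets was 0.01.

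Markers of cells that a lung sample can hold were set beside the members. Of 70 markers with a probe, 0, 3 and 3 were called with rising dose, beside the shares of all named genes given above. At the medium dose all 3 were higher, and at the high dose 2 were lower and 1 higher. The 12 natural killer cell markers with a probe had a median difference of -0.23, -0.11 and -0.37 with rising dose. At the high dose 10 of 12 were below 0, beside 43.6% of all named genes. Klra4 was the 1 called. Klra8 stood at -0.73 (limma adjusted p = 0.0984), and Klre1 at -0.50 (adjusted p = 0.0157) was short of the fold limit. Klra probes were named by accession, and whether they tell the Klra genes apart in this mouse line was not tested. The mean log2 ratio of the list ran from 0.26 to 0.82 in vehicle mice and from 0.04 to 0.29 at the high dose. These ranges overlapped, with vehicle mouse 4 below high-dose mouse 16. Klrk1 was not well above background on any array, Klrc1 and Klri2 were so on 1 array each and Klre1 on 6 of 18. The mean of these markers followed Gzma within groups with an r of 0.78 over the 18 mice. With Ccl5 it gave 0.63 and with Spon2 0.11. The mean of the T cell markers described below gave 0.47 with Gzma, 0.63 with Ccl5 and 0.29 with Spon2. That of the transcription factors above gave 0.64, 0.67 and 0.23. The part of the natural killer cell markers in the lower level of Gzma, Ccl5 and Spon2 was not tested.

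The 12 T cell markers, which include Cd3e, Cd4 and Cd8a, had no call and a median difference of 0.12, 0.15 and -0.08. Their mean log2 ratio ran from -0.49 to -0.12 in vehicle and from -0.37 to -0.14 at the high dose, so these ranges overlapped. Cd5 stood at 0.31, Cd4 at -0.26 and Cd8b1 at 0.21 at the high dose. The 6 B cell markers had a median of 0.51 at the medium dose, where Cd79b and Ms4a1 each rose by 0.70 (limma adjusted p = 0.0419 and 0.0258), and 0.38 at the high dose, where none was called. Of 6 mast cell markers, the tryptase Tpsb2 fell by 0.91 at the high dose (limma adjusted p = 0.00522), while Cpa3 stood at 0.56 and Fcer1a at 0.49, not called.

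The platelet, erythroid, neutrophil, alveolar macrophage, lung epithelium and cardiomyocyte markers had no call at any dose, with high-dose medians of -0.13, -0.03, 0.19, 0.14, -0.18 and -0.05. The platelet genes Gp9, Pf4 and Itga2b stood at -0.39, -0.35 and -0.13 at the high dose, and the erythroid genes Slc4a1, Hba-a1 and Hbb-bt at 0.27, -0.17 and -0.04. The neutrophil genes S100a8, Retnlg and Csf3r stood at 0.79, 0.52 and -0.39, and the macrophage genes Marco, Fabp4 and Siglecf at 1.25, 0.71 and 0.20. The epithelial genes Ager, Hopx and Foxj1 stood at -0.30, -0.29 and -0.18, and the cardiomyocyte genes Myl7, Myh6 and Nppa at -0.45, -0.06 and -0.04. Of the endothelial markers Pecam1 rose by 0.69 under the medium and 0.74 under the high dose (limma adjusted p = 0.000968 and 0.000597), while Cdh5 and Cldn5 stood at -0.10 and -0.19 at the high dose.

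**Figure D5:**
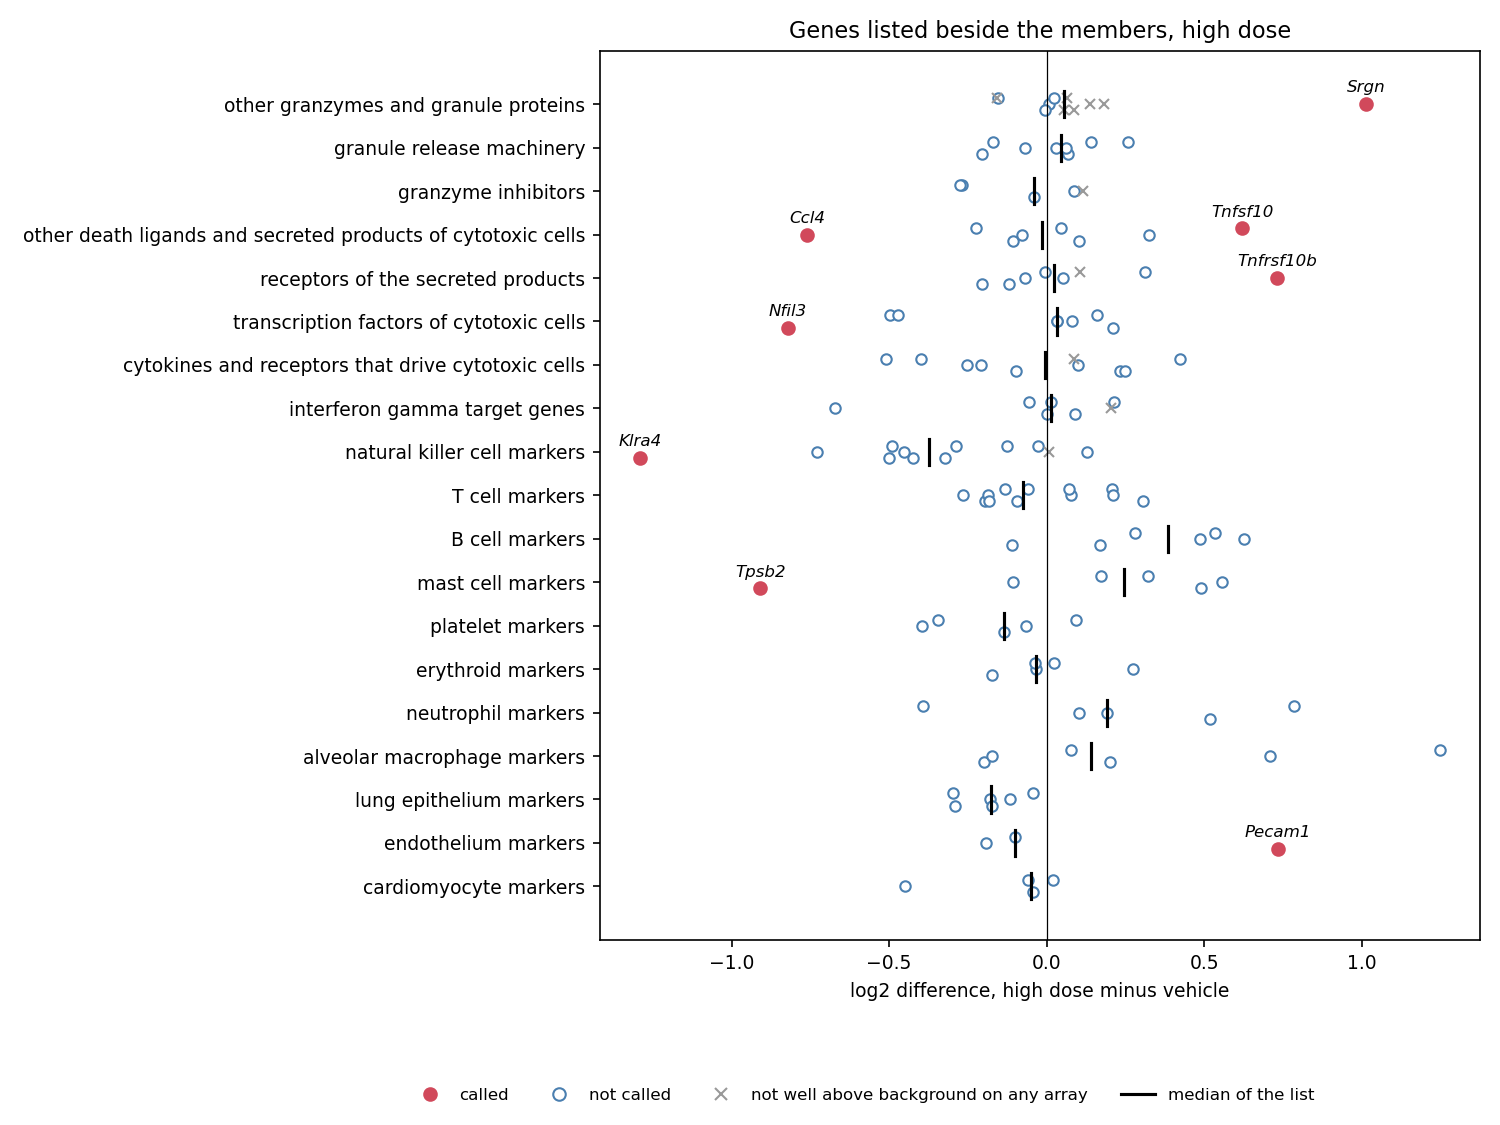
Log2 difference of high dose minus vehicle (x axis) of the genes listed beside the members, 1 point a gene, by list (y axis), with a bar at the median of each list. Filled points are called genes, and crosses are genes not well above background on any array. The natural killer cell markers lie mostly below 0, with a median of -0.37 and Klra4 at -1.29.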

How the data were processed

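Lung RNA of 18 mice was measured on Agilent 2-colour arrays. Per the file headers, the authors deposited the median signal intensity of each spot in both channels as Agilent Feature Extraction 11.0.1.1 wrote it, neither background-subtracted nor normalized, with that software's own log10 ratio of both channels. A second table deposited by the authors holds normalized log2 ratios, used as an alternative, which tracked those computed here with r of 0.995 to 0.998 per array. Log2 ratios of median intensities without background subtraction, which compress differences near background, were normalized by loess within arrays (span 0.3, 4 iterations) in R 4.3.3 with limma 3.58.1. Outlier spots, 215 to 307 per array, and control spots were left out, and spots of 1 probe were averaged. 1 limma fit over 4 groups gave all comparisons, with Benjamini-Hochberg adjustment over 55681 probes. The study's MAANOVA test was not run. Of the probes, 27229 were named through RefSeq accessions. For several probes of a gene, the one with the highest mean log2 intensity was used.

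All 10 members are named. Of each list, the called genes and those with the 3 largest differences at the high dose are named, besides the 5 genes most like Gzma, Ccl5 and Prf1. Runx3 and Ccl3 were named after their values were seen. 1 gene that this rule names is not reported here. Members and lists were chosen with earlier results of these data known. Il12b, Zfp683, Klrc2 and Tpsab1 had no probe. The model was run on simulated arrays in which 200 probes were changed. Values were drawn independently for each probe and array, without slide effects, and the most variable probes were not changed. Those arrays were thus simpler than the real ones, and no result here rests on them. Alternatives were normexp correction with an offset of 50, the scanner ratios, the authors' table, median centring, scale and Aquantile normalization, Cy5 alone, probes well above background in a group (29507), the slide as a block, only the groups compared, no fold limit, the mean of a gene's probes and each mouse left out. Mice were separate animals. The number of arrays limits the precision.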

Additional observations from a re-analysis of the deposited data

Results flagged for a closer look

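Of the 40 sets of values tested, 10 members in 4 groups, 1 held a mouse that stood apart. In Spon2 the log2 ratio of high-dose mouse 18 was -1.99, against -2.60, -2.62 and -2.68 in the other 3 high-dose mice, a gap of 0.880 of the range of the group. Chance alone flags about 1 in 20 such sets. Mouse 18 still lay below every vehicle mouse, the lowest of which was at -1.40.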

How the results depend on the processing

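No called difference changed direction under any alternative. Of 7224 values of single genes under the alternatives, within slides included, 196 lost their sign, all of them of differences not called, such as that of Gzmk at the high dose (-0.03 without high-dose mouse 20). Among the differences of the members from vehicle, 27 values moved by more than the SD between mice. The listed genes were not judged by this limit, so nothing is said of them here. Median centring in place of loess ended all calls of members, 0 at each dose, and all calls of pathway genes and of markers, 0 at each dose, with 3, 32 and 80 probes called at the low, medium and high dose against 50, 404 and 670. The cause was not tested. The Ccl5 call at the low dose was also lost, leaving 0 members, with the scanner ratios, scale normalization, Cy5 alone and only the groups compared. Pathway genes called were 1 at the low dose with the scanner ratios and with scale normalization, and at the medium dose 4 with scale normalization and 7 with no fold limit. Markers called were 5 at the medium dose with the slide as a block, 1 there with only the groups compared, and 5 at the high dose with no fold limit. Without slide 2, added after the data were seen, pathway genes called at the low dose were 0 and markers called at the high dose 8. With each mouse left out in turn, members called were 0 to 1, 2 and 3 with rising dose. Pathway genes were 1 to 2, 2 to 3 and 3 to 6, lowest at the high dose without high-dose mouse 16, and markers were 0, 1 to 5 and 3 to 5. In these fits the Gzma difference at the high dose was -2.50 to -1.97, that of Ccl5 -1.73 to -1.39 and that of Spon2 -1.94 to -1.65. No paired analysis was possible because each mouse number belongs to 1 group. The number of mice and the closeness of Gzmb, Gzmk, Fasl and Ifng to background limit what could be seen. Aquantile normalization leaves ratios as they are.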
